A study of Oryza sativa Japonica Group with 4 samples.

Results

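Zebularine-treated rice seedlings and their DMSO control were compared at every region that the deposited list of methylation losses held. All 189883 rows of that list were taken, out of 1245898 regions in both lists of the series, and none was left out. Every one of them was lower in zebularine-treated seedlings than in the DMSO control, as the list requires. In each region the methylation level of zebularine-treated seedlings was divided by that of DMSO control seedlings, and the quotient is called the fraction kept. Both groups were Nipponbare seedlings (Oryza sativa L., Japonica). At an age of 5 days, 100 seedlings were given 80 µM zebularine dissolved in DMSO for a further 5 days, whereas the control seedlings were given DMSO alone for the same time. The labels state no tissue and no transgene, and DMSO was shared by both groups.

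The series used bisulfite sequencing, which reads unmethylated cytosines as thymine, on 4 libraries with 1 library per condition. Besides zebularine and its DMSO control, they were genomic DNA methylated in the tube with the methyltransferase M.CviP I and the untreated DNA set against it. With 1 library a side there was no replicate, so the treatment could not be tested, and every comparison below describes these libraries. The number of reads behind a level is unknown beyond the minimum of 3 reads per position given in the methods.

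Plant DNA is methylated in 3 sequence contexts, CG, CHG and CHH, where H is A, C or T. CG methylation is copied onto new DNA strands by MET1, CHG methylation is maintained by CMT3 on chromatin that carries H3K9me2, and CHH methylation is set anew by DRM2 under the guidance of small RNAs or is maintained by CMT2. Zebularine is a cytidine analogue that is built into newly made DNA and traps DNA methyltransferases there, so that methylation can be diluted as cells divide.

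CG regions kept most of their methylation, CHG regions kept less and CHH regions kept least. The list was made of 182125 CG regions (95.9%), 3868 CHG regions and 3890 CHH regions, which covered 60.6, 1.32 and 0.868 Mb. The median fraction kept was 0.832 in CG (95% interval of the median over regions, 0.832 to 0.833), 0.726 in CHG (0.718 to 0.732) and 0.236 in CHH (0.225 to 0.244). These intervals cover only the number of regions, and neighbouring regions are not independent. CG regions had a median level of 0.790 in zebularine-treated seedlings, against 0.951 in the DMSO control. CHG regions had a median level of 0.560 in zebularine-treated seedlings and 0.772 in the DMSO control, and CHH regions had 0.0425 in zebularine-treated seedlings and 0.183 in the DMSO control. The contexts thus began from very different control levels, while the median losses lay closer together at 0.158 in CG, 0.178 in CHG and 0.131 in CHH.

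A fraction kept of 0.5 or less was found in 7179 of all 189883 regions (3.78%). By context these were 2753 CG regions (1.51%, exact 95% binomial interval 1.46 to 1.57), 947 CHG regions (24.5%, 23.1 to 25.9) and 3479 CHH regions (89.4%, 88.4 to 90.4). The list holds only losses of at least 0.1, so a region at 0.2 or less in the DMSO control could keep no more than 0.5. With a median CHH control level of 0.183, this outcome was fixed in advance for most CHH regions. The same held for most of the 998 CG and 575 CHG regions under 0.3 in the DMSO control, whose median control levels were 0.188 and 0.171. The level in zebularine-treated seedlings was 0 in 431 CG regions (0.237%), 194 CHG regions (5.02%) and 705 CHH regions (18.1%). At the other end, 3226 CG regions and 37 CHG regions were at 1 in the DMSO control, and no CHH region was. The CHG values spread over the whole scale, with the middle of the regions between 0.513 and 0.811 (quartiles) and a further 244 regions at or below 0.05. In CG the quartiles were 0.787 and 0.863.

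**Figure D1:**
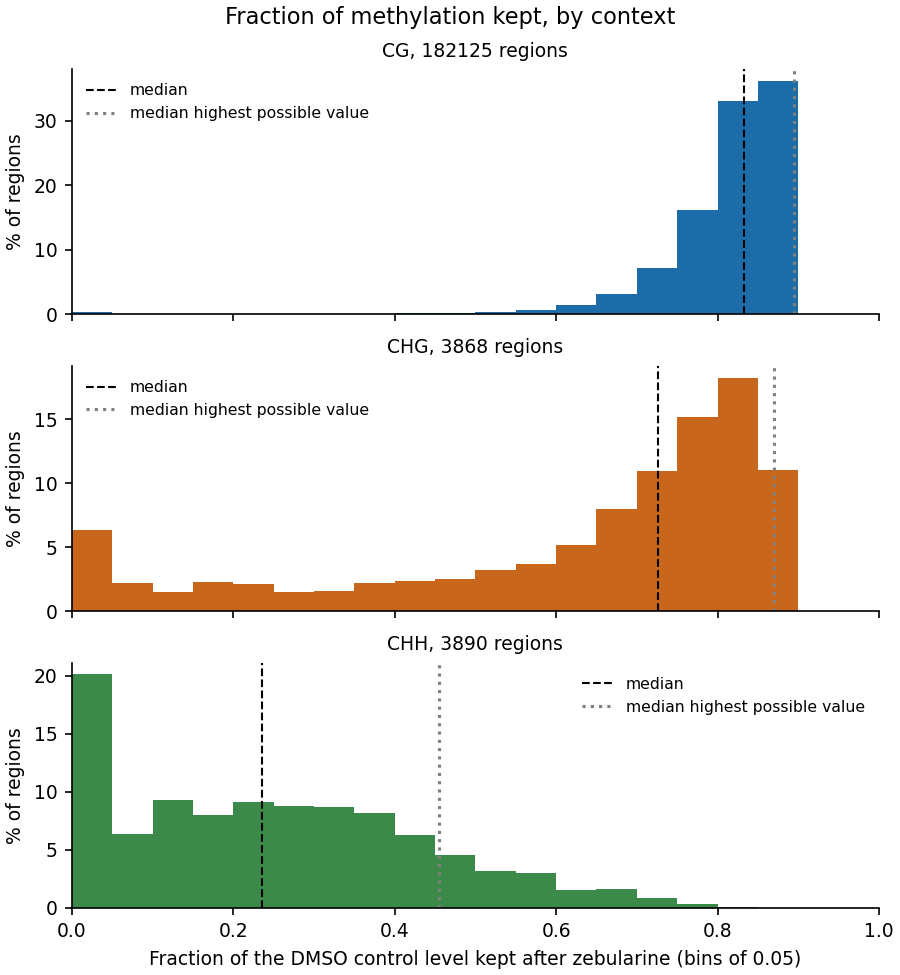
Histograms of the fraction kept after zebularine (x axis, bins of 0.05) as a percent of the regions of each context (y axis), with the median (dashed) and the median of the highest value the list allows (dotted). CG regions crowd between 0.8 and 0.9, CHG regions peak at 0.8 to 0.85 (18.3%) with a second group at 0 to 0.05 (6.31%), and CHH regions have their fullest bin at 0 to 0.05 (20.1%).

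The list itself limits the fraction kept from above, since it holds only losses of at least 0.1. A region with a control level of 0.95 could keep 0.895 of it at most and a region at 0.2 could keep no more than 0.5. This cap had a median of 0.895 in CG, 0.871 in CHG and 0.454 in CHH. The CG median therefore lay 0.0625 below its cap, the CHG median 0.145 and the CHH median 0.219. Just inside the limit, 1630 CG regions had lost less than 0.101, with medians of 0.852 in zebularine-treated seedlings and 0.952 in the DMSO control, as did 21 CHG and 137 CHH regions. Regions just outside it were not in the list.

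Regions chosen by the fixed rule show what these values look like at single places, all given on MSU7.0. The CG region nearest both medians, chr11:15827890-15828054 with 18 cytosines, had a level of 0.792 in zebularine-treated seedlings and 0.951 in the DMSO control. The CG region with the most cytosines, chr12:23600397-23600894 with 138, had 0.803 in zebularine-treated seedlings and 0.955 in the DMSO control. Among CG regions with at least 10 cytosines and a control level of 0.5 or more, 8 were at 0 in zebularine-treated seedlings. The 3 of them with the highest control levels were at chr10:11758656-11758985, chr12:5420206-5420357 and chr7:27497461-27497556. These held 16, 15 and 15 cytosines, and their levels were 0 in zebularine-treated seedlings, against 0.964, 0.936 and 0.907 in the DMSO control. Of 4 such CHG regions, that with the highest control level, at chr10:11758692-11758979, lay inside the first of them and had 0 in zebularine-treated seedlings and 0.711 in the DMSO control over 16 cytosines. The next of these CHG regions, chr11:6279965-6280128 and chr10:11593780-11594267, also had 0 in zebularine-treated seedlings, against 0.562 and 0.557 in the DMSO control. The CHG region nearest its medians, chr2:17800560-17801020, had 0.561 in zebularine-treated seedlings and 0.771 in the DMSO control.

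In CHH, 18 regions with at least 10 cytosines and a control level of at least 0.2 were at 0 in zebularine-treated seedlings, and the 3 with the highest control levels were at chr10:11943998-11944039, chr11:4372683-4372811 and chr7:18242296-18242462. They had 0 in zebularine-treated seedlings, against 0.342, 0.283 and 0.259 in the DMSO control. The CHH region nearest its medians, chr6:13929194-13929348, had 0.0429 in zebularine-treated seedlings and 0.182 in the DMSO control. The regions with the most cytosines kept far more: chr5:21560153-21560639, with 121 CHH cytosines, had 0.333 in zebularine-treated seedlings and 0.451 in the DMSO control, and chr8:14314792-14315291, with 89 CHG cytosines, had 0.762 in zebularine-treated seedlings and 0.866 in the DMSO control.

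Regions that were more methylated in the DMSO control kept a larger fraction in all contexts. Among CG regions the median fraction kept was 0.068 at control levels under 0.3 (998 regions), 0.280 at 0.3 to 0.5, 0.564 at 0.5 to 0.7, 0.686 at 0.7 to 0.8, 0.776 at 0.8 to 0.9, 0.835 at 0.9 to 0.95 and 0.840 at 0.95 to 1 (94990 regions). The cap also rose over the same range, mostly in the lowest classes, with medians of 0.468, 0.753, 0.841, 0.869, 0.886, 0.893 and 0.896. The median fraction kept divided by the cap was 0.174 under 0.3, 0.379 at 0.3 to 0.5, 0.670 at 0.5 to 0.7 and 0.936 at 0.95 to 1. Expressed as a fraction of the cap, the gap between the 0.95 to 1 and the 0.5 to 0.7 classes was 0.267, against 0.275 without that division. The cap itself differed little between these classes. In CHH the gap between the 0.5 to 0.7 class and the class under 0.3 was 0.243 as a fraction of the cap, against 0.427 without the division, since the median cap was 0.818 and 0.423 in these classes. CG regions under 0.5 in the DMSO control made up 1730 of the list, and 1583 of them kept 0.5 or less. For most of the 998 among them under 0.3, with a median control level of 0.188, the minimum loss fixed this in advance. Of the 163267 CG regions at 0.9 or more, 229 did so.

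At equal control levels the contexts lay closer to each other than their overall medians did, and their order was not the same. CHG regions kept more than CG regions in the classes from 0.3 to 0.9, with medians of 0.425 against 0.280 at 0.3 to 0.5 and 0.810 against 0.776 at 0.8 to 0.9. The CHG regions of these classes also had more cytosines, with medians of 20 against 13 at 0.3 to 0.5 and 32 against 22 at 0.8 to 0.9. In the 0.5 to 0.7 class, CHG regions kept 0.630 (575 regions) and CHH regions 0.633 (61 regions), against 0.564 in CG. Under 0.3 the medians were 0.206 in CHH, 0.0996 in CHG and 0.068 in CG, so that CHH regions kept the most there. Their median numbers of cytosines were 14, 10 and 8 in the same order. Region size was not held equal in these comparisons. In CHG the fraction kept was 0.810 at control levels of 0.8 to 0.9, 0.835 at 0.9 to 0.95 and 0.814 at 0.95 to 1, and the last of these classes held 159 regions. Across regions, the Spearman correlation of the fraction kept with the control level was 0.222 in CG, 0.822 in CHG and 0.658 in CHH. The control level is the divisor of the fraction and sets its cap, so these correlations describe the list and are not independent of how it was made.

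**Figure D2:**
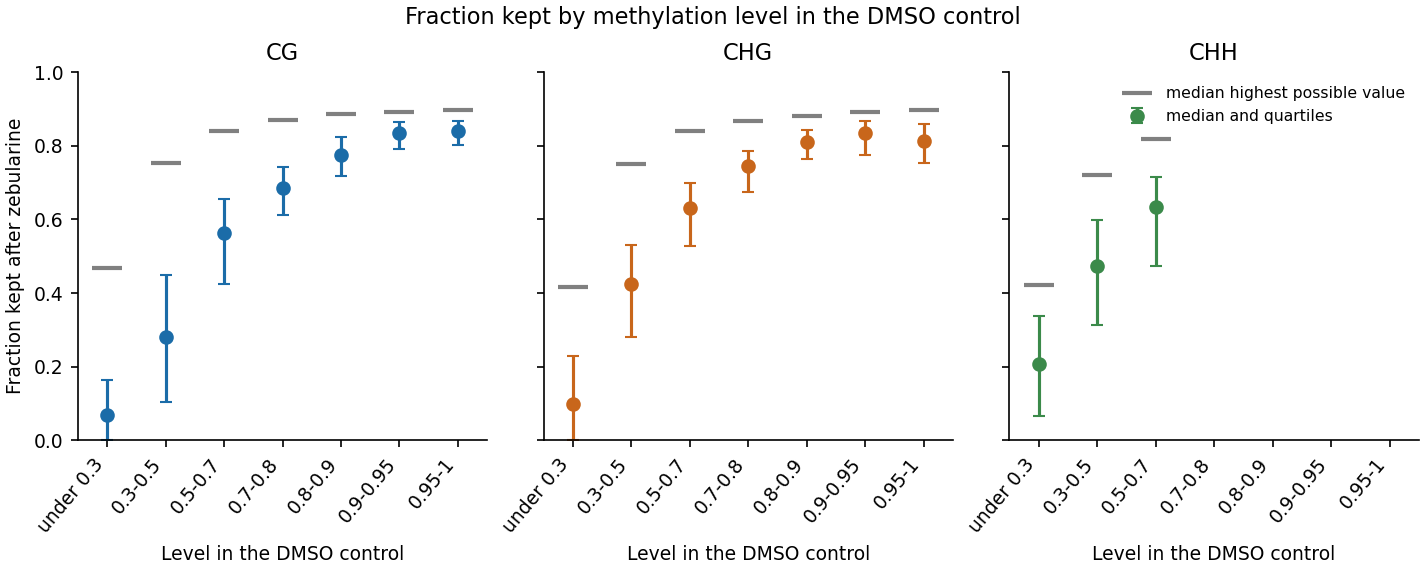
Median fraction kept after zebularine with quartiles (points and bars, y axis) by class of the level in the DMSO control (x axis), with the median cap of each class (grey marks), for classes of at least 20 regions. CG medians run from 0.068 under 0.3 to 0.840 at 0.95 to 1 and stay well below the cap in the lower classes.

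Short regions and regions with few cytosines kept less. CG regions under 100 bp had a median fraction kept of 0.781, and the medians were 0.805 from 100 bp, 0.822 from 200 bp, 0.833 from 300 bp and 0.846 at 400 bp and over. A fraction of 0.5 or less was kept by 6.71% of the shortest and by 0.199% of the longest CG regions. In CHG the medians were 0.413 under 100 bp and 0.787 at 400 bp and over, and in CHH they were 0.090 and 0.383. The control level hardly differed with length in CG, at 0.958 in the shortest and 0.951 in the longest class, but in CHG it was 0.599 and 0.803. At control levels of 0.9 and over, CHG regions under 100 bp kept 0.771 and those at 400 bp and over 0.863, a gap of 0.0918 instead of 0.375.

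The number of cytosines showed a steeper gradient than length did. CG regions kept 0.771 with 5 to 9 cytosines, 0.816 with 10 to 19, 0.841 with 20 to 39 and 0.851 with 40 or more. The same 4 classes had 0.419, 0.590, 0.754 and 0.819 in CHG and 0.051, 0.205, 0.353 and 0.495 in CHH. The CHG control level also differed between these classes, from 0.608 with 5 to 9 cytosines to 0.811 with 40 or more. At control levels of 0.9 and over, the CHG medians were 0.778, 0.813, 0.860 and 0.870. Within 10 to 19 cytosines, the medians of CG regions under 100 bp and at 400 bp and over were 0.809 and 0.827, a gap of 0.0182 instead of 0.0658 over all CG regions. The matching gap in CHH was 0.0552 instead of 0.293, and in CHG it was 0.215 instead of 0.375. The median loss of CG regions was 0.213, 0.174, 0.1505 and 0.141 in the classes of 5 to 9, 10 to 19, 20 to 39 and 40 or more cytosines. The regions had been called with a p-value limit, whose part in these gradients was not tested.

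**Figure D3:**
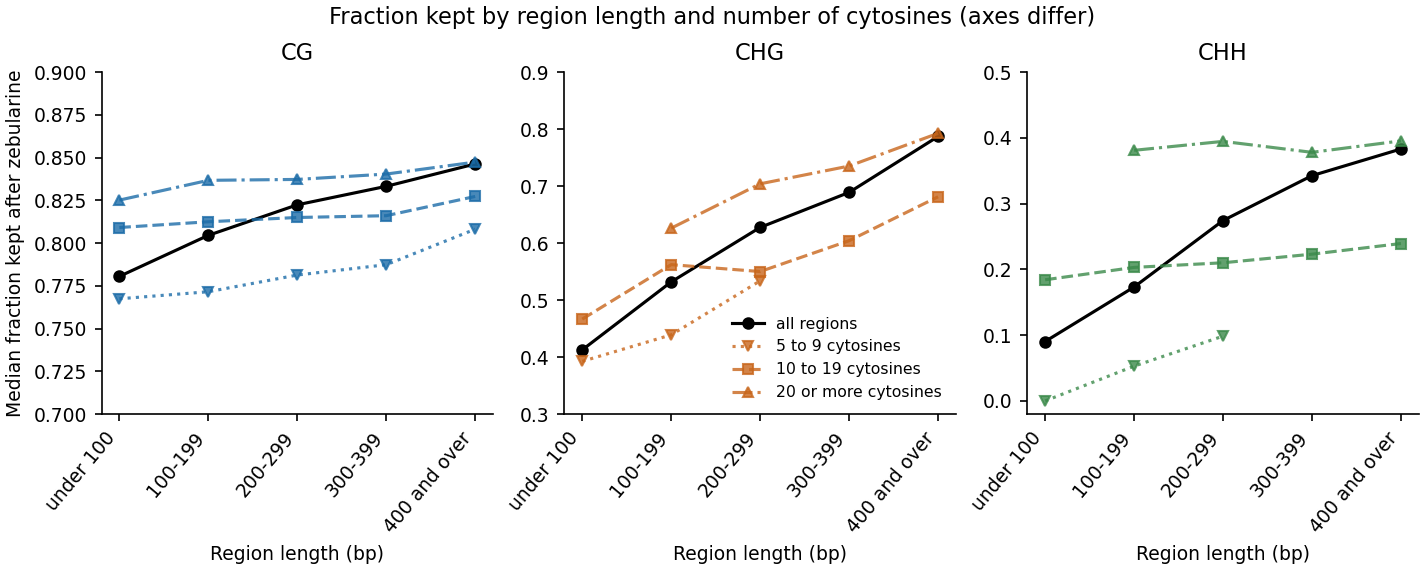
Median fraction kept after zebularine (y axis, scales differ) by region length in bp (x axis) for all regions (black) and for regions with 5 to 9, 10 to 19 and 20 or more cytosines (coloured lines), for classes of at least 20 regions. At 20 or more cytosines the CHH line is nearly level, between 0.378 and 0.396, whereas CHG medians run from 0.626 from 100 bp to 0.793 at 400 bp and over.

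The median fraction kept differed little with cytosine density in CG once the number of cytosines was held, but the share of deep losses did differ. CG regions with at most 5.88 CG cytosines per 100 bp kept 0.816 and those with more than 10.7 kept 0.839. Among CG regions with 10 to 19 cytosines the same density classes had 0.815 and 0.817, and with 20 or more cytosines 0.838 and 0.849. A fraction of 0.5 or less was kept by 1.18% of the sparsest and 3.30% of the densest CG regions with 10 to 19 cytosines. With 20 or more cytosines these shares were 0.281% and 0.574%. Control levels were not held equal in these shares. In CHG the sparsest class kept 0.616 and the densest 0.773, but with 10 to 19 cytosines the order was turned, at 0.604 in the sparsest and 0.551 in the densest, and with 20 or more cytosines it was 0.733 and 0.809. In CHH the medians were 0.161 in the sparsest and 0.271 in the densest class, and 0.198 and 0.210 with 10 to 19 cytosines. Dense CHH regions with 20 or more cytosines kept the most of that context, 0.494 against 0.315 in the sparsest class, and had control levels of 0.284 and 0.174.

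Gaps between neighbouring regions of the same context were short in CG and long in CHG and CHH. The median gap to the next region of the same context was 568 bp in CG, 58538 bp in CHG and 66618 bp in CHH. The next region lay within 1 kb for 62.1% of CG, 5.81% of CHG and 2.22% of CHH regions, and 986 CG regions touched the next one without a gap. When regions with gaps of at most 1 kb were linked, 81.7% of CG regions fell in chains of at least 2 regions and 2496 chains held 10 or more. CHG chains held 6 regions at most and CHH chains 2. The context with the most regions has the shortest gaps for that reason alone, so the number per window was also compared.

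In 3740 windows of 100 kb, there were 48.7 CG regions on average, with a range from 0 to 146. The variance of the number per window was 10.7 times its mean in CG, 1.35 times in CHG and 1.03 times in CHH, where a value of 1 is what independently placed regions would have. Divided by the mean, the excess of this ratio over 1 was 0.199 in CG, 0.334 in CHG and 0.031 in CHH. CHG regions were thus no less uneven than CG regions at their lower number. CHH regions were close to what independent placement would give in these windows, while in 1 Mb windows their ratio was 1.38. The number of CG regions per window had a Spearman correlation of 0.360 with that of CHG and 0.076 with that of CHH over the same windows, which share the libraries and the mappable bases.

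The fullest window, chr6:15400001-15500000, held 146 CG regions with a median fraction kept of 0.825 and none at 0.5 or less. Of the windows, 2 held no CG region. The emptiest of those with any, chr9:23000001-23100000, held 1 CG region and ran past the last region of the chromosome, which ended at 23009339. That region had 0.749 in zebularine-treated seedlings and 0.973 in the DMSO control. The longest chain, chr9:2738551-2787294, linked 84 CG regions over 48.7 kb, with a median fraction kept of 0.812 and a range from 0.444 to 0.889. Chromosomes differed little. CG regions numbered 395 per Mb on chromosome 3 and 559 per Mb on chromosome 12, but their median fraction kept lay between 0.832 (chromosome 5) and 0.833 (chromosome 10). The CHG medians lay between 0.678 (chromosome 10) and 0.754 (chromosome 9), and the CHH medians between 0.204 (chromosome 4) and 0.267 (chromosome 3).

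Stretches with fewer CG losses held a larger share of deep ones. In 376 windows of 1 Mb with at least 100 CG regions, the median fraction kept was 0.797 to 0.847, and it had a Spearman correlation of 0.606 with the number of CG regions. The share of CG regions that kept 0.5 or less was 0.0962% to 6.89%, with a correlation of -0.673. The 94 fullest windows, with 638 to 1039 CG regions each, kept a median of 0.836 with 0.728% of regions at 0.5 or less, and the 94 emptiest, with at most 332 each, kept 0.824 with 2.54%. The median control levels of these windows were 0.952 and 0.95, but the regions differed in size, with medians of 418 bp and 27 cytosines in the fullest windows and 293 bp and 20 cytosines in the emptiest. Medians do not show the few CG regions under 0.5 in the DMSO control, most of which kept 0.5 or less. The parts of region size and of such low control levels in this difference were not tested.

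**Figure D4:**
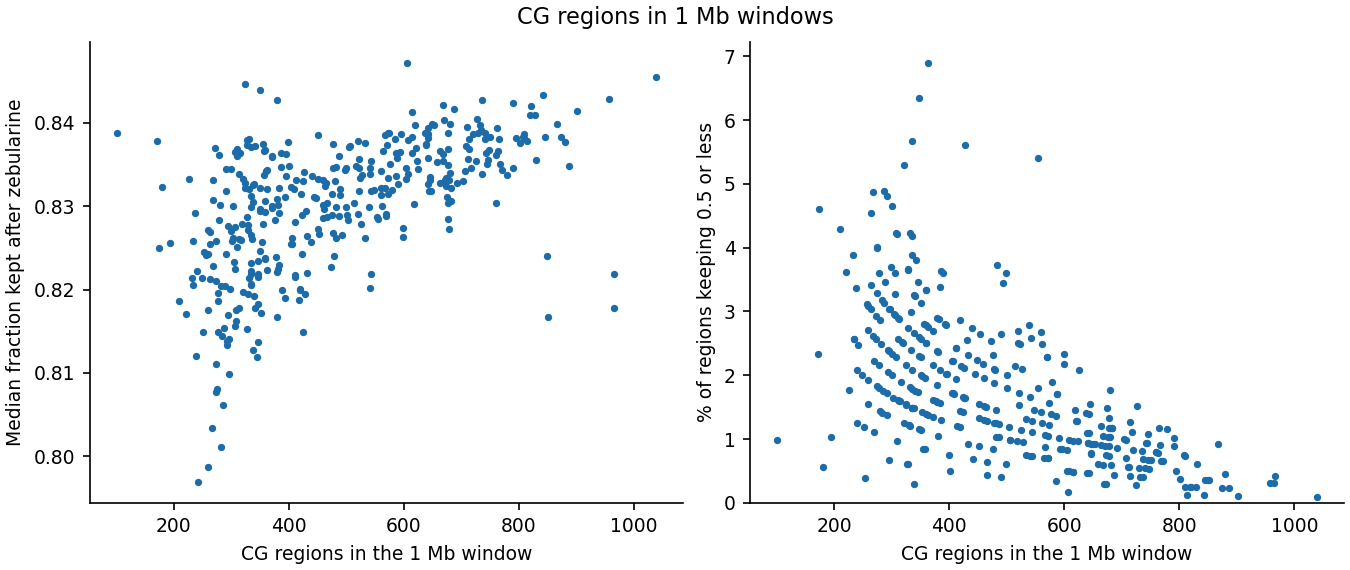
Median fraction kept after zebularine (left) and the percent of CG regions keeping 0.5 or less (right) against the number of CG regions in each of 376 windows of 1 Mb (points). Windows with many CG regions have few deep losses, and the highest share, 6.89%, is in a window with fewer than 400 regions.

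Neighbouring regions resembled each other weakly in CG and strongly in CHG. For CG regions with gaps of at most 100 bp, the Spearman correlation of the fraction kept between neighbours was 0.160 (35148 pairs). It was 0.165 from 100 bp to 1 kb, 0.0866 at 1 to 10 kb and -5.65e-05 over 10 kb (4917 pairs). For CHG the correlations were 0.837 (78 pairs), 0.735 (146 pairs), 0.210 and 0.030 over the same distances. In CHH the correlation from 100 bp to 1 kb was 0.035 (75 pairs). Neighbours share the libraries and, at short distance, reads and control levels, whose own correlation was 0.208 in CG and 0.794 in CHG at gaps of at most 100 bp.

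A region next to a deep loss was more often deep as well when it lay close by. When a CG region kept 0.5 or less, the next region within 100 bp did so as well in 11 of 28 cases (39.3%, exact interval 21.5 to 59.4), against 72 of 35120 (0.205%) after a region that kept more. From 100 bp to 1 kb this was 78 of 691 (11.3%) against 0.806%, and over 10 kb it was 4.71% against 3.96%. Of the deep CG losses, 1843 had the next CG region 1 to 10 kb away, and the distance to the region before was not counted. The shares at that distance were 4.72% and 2.71%. Control levels were not held equal in these shares. In CHG the next region within 100 bp kept 0.5 or less in 19 of 22 cases (86.4%) after such a region, against 10 of 56 (17.9%) after a region that kept more.

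Of the 3 chains of 6 CHG regions that tied as the longest of that context, the one with the lowest median, singled out after its values were seen, was at chr10:11592457-11595055. The CHG levels there were 0.0037, 0.0144, 0, 0, 0.0167 and 0.058 in zebularine-treated seedlings, against 0.446, 0.640, 0.399, 0.557, 0.674 and 0.697 in the DMSO control. The 6 CG regions that shared its bases had 0.0071, 0.0137, 0.0106, 0.528, 0.418 and 0.598 in zebularine-treated seedlings, against 0.941, 0.949, 0.934, 0.940, 0.893 and 0.973 in the DMSO control. CHG methylation was therefore nearly gone in all 6 CHG regions of this 2.60 kb stretch, whose gaps have no CHG level in the list, while CG methylation was nearly gone in the first 3 CG regions only and kept 0.468 to 0.615 in the others. The other longest CHG chains, also chosen after their values were seen, at chr4:20473403-20476926 and chr8:18923219-18926281, were mixed, with 4 and 2 of their 6 regions at 0.5 or less.

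Where losses of different contexts fell on the same bases, CG regions kept less. Of CG regions, 3641 shared at least 1 base with a CHG region. They kept 0.811, against 0.833 in the 178484 that did not, and 6.92% of them kept 0.5 or less, against 1.40%. The gap was widest at middle control levels. At 0.5 to 0.7 the median was 0.292 in 63 CG regions with a CHG loss and 0.569 in 1297 without, and at 0.95 to 1 it was 0.822 and 0.840. The 1750 CG regions that shared a base with a CHH region kept 0.825, against 0.832 in the others. They kept less in every class of control level except 0.5 to 0.7, where 17 of them kept 0.567, against 0.564. The medians were 0.630 (30 regions) against 0.687 at 0.7 to 0.8 and 0.836 against 0.840 at 0.95 to 1.

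Seen from the CHG side the order was turned. The 2940 CHG regions with a CG loss on their bases (76.0% of the context) kept 0.741, against 0.633 in the 928 without, and those with it also had a higher control level (0.783 against 0.7001) and more cytosines (27 against 12). At equal control levels the gap was small, with 0.636 against 0.602 at 0.5 to 0.7, 0.747 against 0.714 at 0.7 to 0.8 and 0.811 against 0.809 at 0.8 to 0.9. CHG regions that shared a base with a CHH region numbered 153 and kept 0.456, against 0.730 in the rest, with control levels of 0.557 against 0.7785. At equal levels the 25 such regions at 0.5 to 0.7 kept 0.642, against 0.629, the 22 at 0.7 to 0.8 kept 0.69965, against 0.747, and the 58 under 0.3 kept 0.0337, against 0.1175. Pairing each of the 2940 CHG regions with the CG region on its bases, CHG kept less than CG in 71.7% of pairs. The median losses in these pairs were alike, at 0.182 in CG and 0.18 in CHG, and control levels were not held equal. The Spearman correlation of the fractions kept in these pairs was 0.451. For 1598 CHH regions paired with CG it was 0.189, and for 148 CHH regions paired with CHG it was 0.661.

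At 120 places a CHH region, a CHG region and a CG region all shared bases. The median fraction kept there was 0.711 in CG, 0.460 in CHG and 0.133 in CHH. Of the CG values 42.5% were at 0.5 or less, against 1.51% of all CG regions, but control levels were not held equal. Among all CG regions that shared a base with a CHH region, 81 kept 0.5 or less. Of these, 51 were under 0.3 in the DMSO control, with a median control level of 0.161. The largest summed loss was at chr6:6301473-6301942, where the CG level over 42 cytosines was 0.0038 in zebularine-treated seedlings and 0.930 in the DMSO control. Its CHG region had 0.0642 in zebularine-treated seedlings and 0.630 in the DMSO control, and its CHH region had 0.0153 in zebularine-treated seedlings and 0.174 in the DMSO control. Next came chr11:9302345-9302798, with CG levels of 0.0424 in zebularine-treated seedlings and 0.874 in the DMSO control, and then chr10:11594464-11594549, which is part of the CHG chain above.

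The untreated DNA of the series gave a further level for some of the same bases. It was read from the list of gains after M.CviP I at places where a region of the same context shared at least 50% of both regions, which 920 CG, 510 CHG and 1121 CHH regions did. The CHH median was 0.0644 in zebularine-treated seedlings, 0.192 in the DMSO control and 0.0794 in untreated DNA, and the untreated level was nearer to the DMSO control than to zebularine at 9.72% of the places (8.05 to 11.6). In 36.5% of the CHH places it was below the zebularine level. The CHG median was 0.379 in zebularine-treated seedlings, 0.598 in the DMSO control and 0.480 in untreated DNA, which was nearer to the DMSO control at 51.4% (46.9 to 55.8). The CG median was 0.544 in zebularine-treated seedlings, 0.775 in the DMSO control and 0.552 in untreated DNA, nearer to the DMSO control at 33.2% (30.1 to 36.3).

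A gain of at least 0.1 after M.CviP I requires an untreated level of 0.9 or less, so places were also taken only where the M.CviP I level left room for the control level. This gave 55.2% of 373 CG places, 61.4% of 360 CHG places and 10.4% of 980 CHH places nearer to the DMSO control. At control levels under 0.3, where the contexts can be set side by side, it was 42.1% in CG (145 places), 45.5% in CHG (121 places) and 9.71% in CHH (896 places). In these CHH places the median was 0.054 in zebularine-treated seedlings, 0.177 in the DMSO control and 0.0686 in untreated DNA. The untreated DNA came from plants for which the labels give no DMSO, from another library, and its places were chosen by a gain, while the regions were chosen by a loss from the DMSO control level. The methods describe older seedlings grown on soil as general plant material and name no age for this DNA. Age and growth conditions may therefore have differed too. These differences cannot be told apart here.

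**Figure D5:**
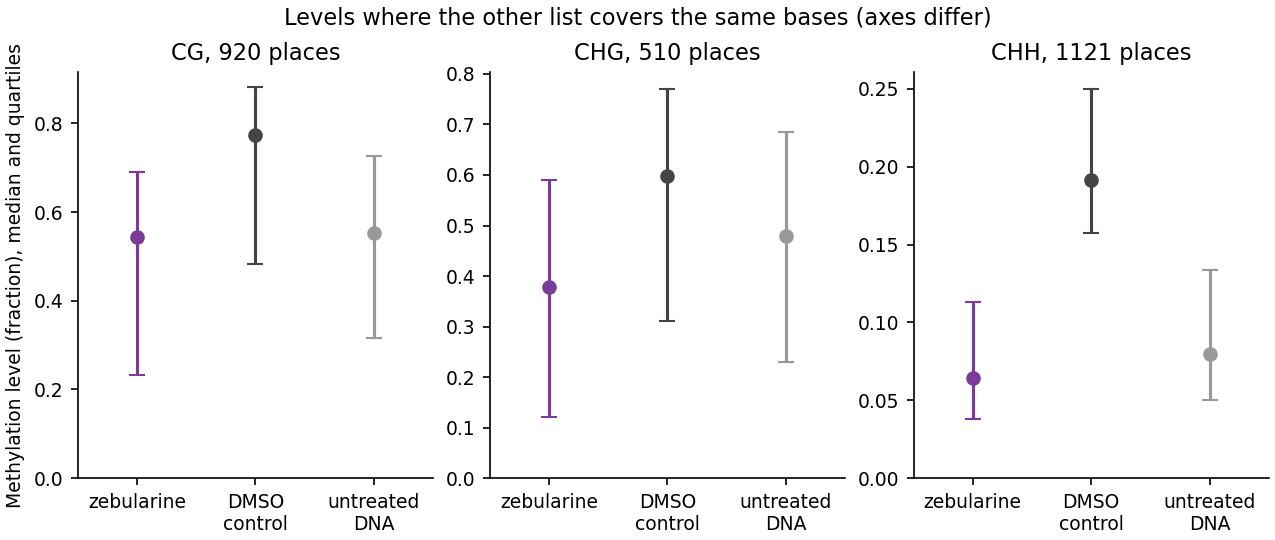
Median methylation level with quartiles (y axis, fraction, scales differ) in zebularine-treated seedlings, the DMSO control and untreated DNA at the places where both lists cover the same bases. The untreated CHH median of 0.0794 is close to the zebularine median of 0.0644, and the untreated CHG median of 0.480 lies between 0.379 and 0.598.

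CG regions with deep losses also differed in the other contexts of the untreated DNA. Where a CHH gain region covered at least 50% of a CG region, the untreated CHH level had a median of 0.0151 in CG regions that kept 0.5 or less (2330 regions), 0.0208 at 0.5 to 0.7, 0.0396 at 0.7 to 0.8, 0.0486 at 0.8 to 0.85 and 0.0549 over 0.85 (56883 regions). The untreated CHG level, where such a region was listed, had medians of 0.0167, 0.0178, 0.0300, 0.353 and 0.553 in the same order. With CG control levels of at least 0.9 alone, the CHG medians were 0.0127 (54 of 229 regions), 0.0142, 0.0264, 0.389 and 0.563. The CHH medians were then 0.0221, 0.0223, 0.0406, 0.049 and 0.0551, so the classes up to 0.7 hardly differed in CHH. CHG gain regions covered only 43.6% of the CG regions that kept 0.5 or less and 12.7% of those over 0.85, so these medians describe a part of each class. Among the covered regions, the untreated CHG and CHH levels were thus lowest where CG methylation had been lost most, with or without the limit on the control level for CHG.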

How the data were processed

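Bisulfite sequencing libraries of zebularine-treated and DMSO control rice seedlings, 1 per condition, were compared. Per the methods, read trimming used Fastp, alignment to MSU7.0 used Bismark, and the authors kept uniquely mapped reads and positions covered by 3 reads or more. CGmapTools then called regions with a p-value cutoff of 0.01 and a minimum difference of 0.1. Each level was deposited by the authors as a fraction between 0 and 1 averaged over a region's cytosines in a single library. The files have no header, and the level columns were identified from the name of each list and the direction of change. The deposited t statistic, p-value and difference are the authors' own comparison and were not used.

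The fraction kept, its cap (1 minus 0.1 divided by the control level), gaps, chains (gaps of at most 1 kb), windows and overlaps were computed with scipy 1.17.1, pandas 2.3.3 and numpy 2.4.6 under Python 3.11.15, drawn with matplotlib 3.10.9, and checked on simulated regions. The largest region end stood for each chromosome end. Intervals are at 95%, from order statistics for medians and exact binomial for shares, and cover counting over regions only. Depth per region is unknown. The members and classes were chosen with earlier results of these data known. Named were, per context and among regions with at least 10 cytosines, the 3 with the lowest fraction kept (control level at least 0.5, in CHH at least 0.2, ties by the higher control level), that with the most cytosines and that nearest the medians, besides the fullest and emptiest windows, the longest CG chain and the 3 places with the largest summed loss in all contexts. Sequences and gene annotation of MSU7.0 were not used here. Alternatives were a loss of at least 0.2, at least 10 cytosines, joining within 100 bp, other averages, 1 Mb windows, a stricter overlap and subsets by control level or cytosines.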

Additional observations from a re-analysis of the deposited data

How the results depend on the processing

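Over all control levels, the order of the contexts was CG, CHG, CHH for the median and for the share keeping 0.5 or less under the alternatives given here. At equal control levels the order differed, as described above. With losses of at least 0.2 only, the medians were 0.742 in CG, 0.622 in CHG and 0.183 in CHH, and the shares at 0.5 or less 4.47%, 30.2% and 93.9%. Regions of 10 or more cytosines had medians of 0.838, 0.751 and 0.307 and shares of 0.825%, 17.9% and 85.5%. The means were 0.809, 0.620 and 0.247, and the ratios of cytosine-weighted mean levels 0.830, 0.753 and 0.420. Joining within 100 bp gave 0.829 and 1.81% in CG and left the other contexts within their intervals. The CG gap between control levels of 0.95 to 1 and 0.5 to 0.7 was 0.229 with losses of at least 0.2 and 0.248 with at least 10 cytosines. The CG gap between long and short regions was 0.0548 at control levels of at least 0.9, 0.0182 with 10 to 19 cytosines and, in an alternative chosen after seeing the data, 0.0223 with at least 20 cytosines. The CG gap between dense and sparse regions was 0.0220 and 0.00209 under the first 2 of these, and the CHG gap changed sign under them, to -0.000532 and -0.0535. The share of CG regions with the next within 1 kb was 18.5% with losses of at least 0.2, which leaves 24.7% of the regions, and 53.0% after joining. The fullest 10% of 100 kb windows held 19.5% of CG regions, against 17.2% in 1 Mb windows, 18.5% with losses of at least 0.2 and 17.5% after joining. The neighbour correlation within 1 kb in CG, 0.171, was 0.181 with losses of at least 0.2 and 0.129 at control levels of at least 0.9. The difference between CG regions with and without a CHG loss, -0.0213, was -0.0276 when 50% of the CG region had to be shared. For CHH losses the difference was -0.0151 in that case and -0.00374 at control levels of at least 0.9. Alternatives chosen after seeing the data moved the share of untreated levels nearer to the DMSO control to 55.2% in CG and 61.4% in CHG where the M.CviP I level left room, 48.5% and 58.6% with 80% of both regions shared and 28.6% in CG with at least 20 cytosines, while in CHH it stayed between 9.63% and 10.8%. The overlap with genes was not run, since no annotation of MSU7.0 was used here. Causes of these shifts were not tested. The single library per condition, the unknown depth and the minimum loss limit all of these values.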
